A study of Homo sapiens with 4 samples.

Results

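The regions described here are the BRCA2 sites on the long arm of chromosome 10, from 43 Mb of hg19 to the end of the chromosome, in hTert-HME1, an established line of human breast epithelium that carries telomerase. Of the 15131 sites in the authors' deposited table, 825 lay in this stretch. They are set beside 51 sites on chromosome 10 before 43 Mb and 13980 sites on the other 21 autosomes. The stretch was chosen by its input level, which earlier work on these data had shown to be high, so the level, the fold and the FDR of its sites are given as a description, with no test.

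Chromatin was precipitated with an antibody to BRCA2 in 2 ChIP libraries and set against 2 libraries of input chromatin from the same line, all from cells in log-phase growth, with no treatment or genotype named. Whether replicates came from separate cultures is not stated, and the FDR rests on the spread between the 4 libraries alone, which could be technical. The table gives a mean over each pair of libraries and no value per library, so no spread between replicates and no depth can be given. No control antibody was analysed here, so binding of BRCA2 and pull-down of other chromatin cannot be told apart. A level is the authors' mean log2 concentration of normalized reads at a site, and the log2 fold is the ChIP level minus the input level. The FDR is the authors' adjusted p-value of that comparison, and every site in the table has one of at most 0.05.

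BRCA2 is needed for the repair of DNA breaks by homologous recombination and for the protection of stalled replication forks. It is not known as a sequence-specific factor, and its partners on chromatin include BCCIP, whose gene lies on this arm. Input chromatin is the sheared chromatin before the antibody is added. The number of input reads at a place follows how much of that DNA the cells hold, how well its reads map and how readily it shears.

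The promoters of 4 start sites with large folds are shown first. They do not include the 3 largest folds of the arm, at NDST2, at MGEA5 and at BCCIP with UROS. The 4 shown are those among the 10 largest folds of the arm whose site lies over the gene start, reaches at least 250 bp before it in the authors' annotation, and has 1 RefSeq entry. Each sequence is the 250 bases before the RefSeq start, 5′ to 3′ on the gene's strand, on GRCh38.p14. The site positions elsewhere in the text are on hg19 and cannot be compared with these coordinates. Capitals mark matches, on either strand, to the GC box (GGGCGG), the CCAAT box (CCAAT), the TATA box (TATAAA), an ETS factor motif (CCGGAAG), the AP-1 site (TGACTCA), the cyclic AMP response element (TGACGTCA) or the NRF1 site, none of which overlap in these windows.
FRAT2, chr10:97334730-97334979, minus strand: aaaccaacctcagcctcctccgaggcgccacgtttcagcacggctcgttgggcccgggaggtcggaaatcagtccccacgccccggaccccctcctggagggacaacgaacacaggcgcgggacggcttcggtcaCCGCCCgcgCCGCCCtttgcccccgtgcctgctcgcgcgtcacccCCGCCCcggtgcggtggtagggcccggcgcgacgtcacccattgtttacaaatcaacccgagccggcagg
FRAT1, chr10:97319021-97319270, plus strand: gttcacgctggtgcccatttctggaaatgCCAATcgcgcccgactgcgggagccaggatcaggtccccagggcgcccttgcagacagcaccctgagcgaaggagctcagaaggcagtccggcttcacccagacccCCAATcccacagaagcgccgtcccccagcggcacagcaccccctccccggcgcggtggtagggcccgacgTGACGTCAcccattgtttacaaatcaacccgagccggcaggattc
SMC3, chr10:110567445-110567694, plus strand: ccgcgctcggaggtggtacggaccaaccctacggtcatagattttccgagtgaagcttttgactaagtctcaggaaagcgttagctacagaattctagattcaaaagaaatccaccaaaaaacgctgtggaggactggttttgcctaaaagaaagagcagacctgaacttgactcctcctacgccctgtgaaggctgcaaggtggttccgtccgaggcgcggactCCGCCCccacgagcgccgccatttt
RTKN2, chr10:62268845-62269094, minus strand: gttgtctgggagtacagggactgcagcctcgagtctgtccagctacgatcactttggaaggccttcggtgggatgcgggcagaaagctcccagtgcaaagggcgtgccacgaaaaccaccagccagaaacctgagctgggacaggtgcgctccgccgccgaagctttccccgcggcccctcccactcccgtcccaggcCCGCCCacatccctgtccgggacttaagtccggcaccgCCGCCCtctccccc

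FRAT1 and FRAT2, neighbouring paralogs whose products bind the kinase GSK3 in Wnt signalling, share an unbroken run of 40 bases in these windows, which ends 5 bp before the start of FRAT1 and 1 bp before that of FRAT2. The cyclic AMP response element, TGACGTCA, stands 45 to 38 bp before the start of FRAT1 and is not in the FRAT2 window. The GC box has 3 matches in FRAT2, 2 in RTKN2 and 1 in SMC3, the latest of them 14 to 9 bp before the RTKN2 start. The GC box is common: it is in 42.6% of all 35116 RefSeq promoter windows, where CCAAT is in 32.0% and TGACGTCA in 1.65%. A match is a description of the letters and no sign of binding by a factor.

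The input level of the long arm was high over nearly its whole length. Its median over the 825 sites was 5.94 on the log2 scale, against 4.6 before 43 Mb and 5.4 on the other autosomes. The difference was 1.34 to the near part of chromosome 10, a ratio of 2.53, and 0.54 to the other autosomes, a ratio of 1.45. The input level of 761 of the 825 sites (92.2%) was above 5.24, the highest of any site before 43 Mb. It was above the median of the other autosomes at 720 sites (87.3%), while all 51 sites before 43 Mb were below that median. DNA copies per cell were not measured here, and their part in these levels was not tested.

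The ChIP level was high along with the input. Its median was 7.01 on the long arm, 5.97 before 43 Mb and 6.58 on the other autosomes, which are differences of 1.04 and 0.43. The median log2 fold was 1.03 on the long arm, against 1.44 before 43 Mb and 1.15 on the other autosomes. The middle 50% of the folds ran from 0.83 to 1.29 on the long arm and from 0.93 to 1.5 on the other autosomes. Of the 825 sites, 511 (61.9%) had a fold below the median of the other autosomes.

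**Figure D1:**
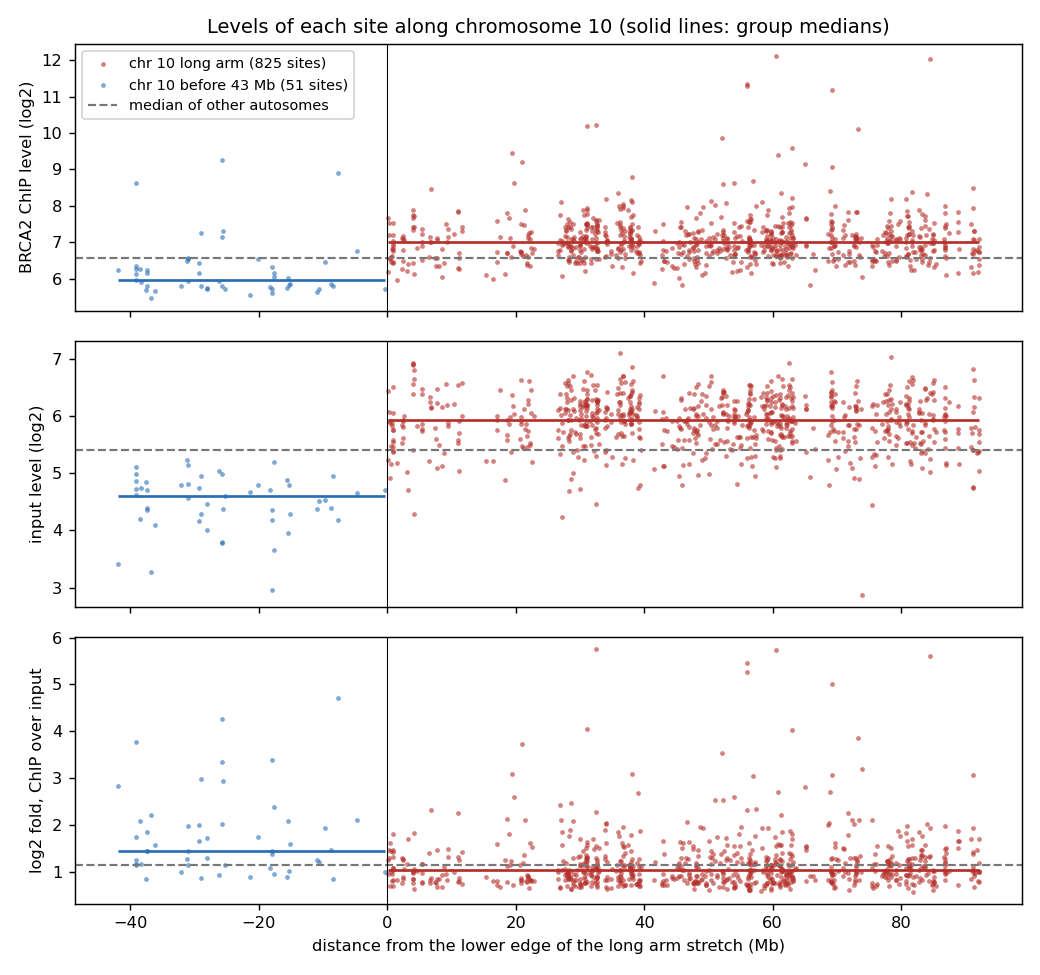
BRCA2 ChIP level, input level and log2 fold of each site on chromosome 10 against its distance in Mb from the lower edge of the long arm stretch. Each point is a site, solid lines are group medians and the dashed line is the median of the other autosomes. The median input is 5.94 on the long arm and 4.6 before the edge, and the few points with a ChIP level over 11 are all on the long arm.

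The 5 sites on each side of the edge are given as they lie. Going outward before 43 Mb, the authors' deposited table gave input levels of 4.71 near AL031601.4, 4.66 over the start of ZNF33A, 4.18 at CUL2, 4.95 inside PARD3 and 4.40 near RP11-490O24.2. From 43 Mb on they were 6.44 over the start of ZNF33B, 5.23 near AL022344.2, 5.91 at BMS1, 6.08 near RNU6-885P and 4.92 near RP11-124O11.1. ZNF33A and ZNF33B are zinc finger genes of similar sequence on either side of the centromere, so the split of reads between them is uncertain. The ranges of these 2 sets of 5 sites overlap, since the RP11-124O11.1 site was below that of PARD3. CUL2, a scaffold of ubiquitin ligases, had the largest fold before the edge, 4.72 in the authors' deposited table, at a ChIP level of 8.90.

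In windows of 10 Mb counted from the edge, each with at least 20 sites, the arm stayed high from end to end. The 10 windows had median inputs from 5.68 to 6.06, against a median of 5.4 and a range of 4.46 to 6.04 over the 218 windows elsewhere on the autosomes. Of the 10 windows with the highest input among all 228, 7 were on this arm. The highest was the window from 73 to 83 Mb, with 155 sites and a median of 6.06, which holds KCNMA1 and PPIF. The lowest on the arm was the last one, from 133 Mb, with 21 sites and a median of 5.68. The median ChIP level of the 10 windows ran from 6.80 to 7.09, against a median of 6.57 elsewhere. Of the 10 windows with the highest ChIP level, 8 were on this arm. The highest of all, at 7.16, was on chromosome 13 from 110 to 120 Mb.

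**Figure D2:**
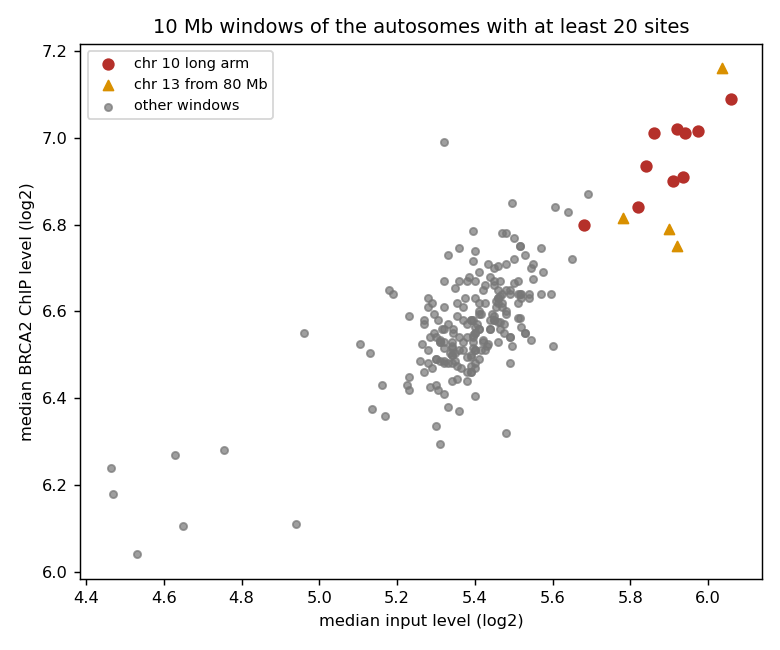
Median BRCA2 ChIP level against median input level, both log2, of 10 Mb windows of the autosomes with at least 20 sites, each point a window. The 10 windows of the chromosome 10 long arm lie between 5.68 and 6.06 of input, where only 5 of the 218 other windows reach 5.68.

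The raised input was much the same over all classes of site. Sites over a gene start had a median input of 5.94 on the long arm and 5.41 on the other autosomes, and sites inside a gene 5.96 and 5.41. Upstream sites had 5.94 and 5.38, and downstream sites 5.83 and 5.4. Promoter sites, which lie over a gene start or within 1 kb of one, had a median input of 5.91 on the long arm, 4.18 before 43 Mb and 5.38 on the other autosomes. Sites further from a start had 5.94, 4.72 and 5.41.

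Promoter sites were a smaller share on the long arm. They numbered 218 of 825, or 26.4% (95% Wilson interval 23.5 to 29.5), against 17 of 51 before 43 Mb, 33.3% (22 to 47.0), and 4719 of 13980 on the other autosomes, 33.8% (33.0 to 34.5). These and all intervals below cover counting error only. Sites inside a gene were 49.8% of the long arm (46.4 to 53.2) and 47.1% of the other autosomes. Downstream sites were 14.1% (11.9 to 16.6) and 10.6%, upstream sites 18.2% and 19%, sites over a start 17.3% and 22.4%, and sites over a gene end 0.61% and 0.97%. Which sites were called depends on the same comparison as the input level, so these shares were not tested. Of strong sites, those with a log2 fold of 2 or more, the promoter share was 45.8% on the long arm (22 of 48, interval 32.6 to 59.7), 57.1% before 43 Mb (8 of 14) and 43.4% on the other autosomes (665 of 1531).

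Weak sites made up most of the long arm. Only 48 of the 825 sites (5.82%, interval 4.42 to 7.63) had a log2 fold of at least 2, where the share over all sites of the table was 10.9%. It was 27.5% before 43 Mb (14 sites) and 11% on the other autosomes. The line of 4 was passed by 8 sites, or 0.97%, against 2.03% over the whole table. An FDR under 0.001 was held by 358 sites (43.4%), close to the 44.6% over the whole table. A log2 fold under 1 was held by 45.7% of the sites on the long arm, 15.7% before 43 Mb and 32.7% on the other autosomes.

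Set against the number of protein-coding genes, sites at or over a log2 fold of 2 had close densities in the 3 groups, and weaker sites had unlike ones. The long arm held 8.39 sites at or over a log2 fold of 2 per 100 coding genes (exact 95% Poisson interval 6.19 to 11.1). There were 8.64 before 43 Mb (4.72 to 14.5) and 8.32 on the other autosomes (7.91 to 8.75). Weaker sites numbered 136 per 100 coding genes on the long arm (126 to 146), 22.8 before 43 Mb (16.1 to 31.5) and 67.7 on the other autosomes (66.5 to 68.9). The parts of chromosome 10 from and before 43 Mb thus differed 5.96 times in weaker sites per gene and 0.97 times in strong ones. This held at the line of 2 and not at 1.5, where the densities were 24.3 on the long arm (20.4 to 28.7), 14.8 before 43 Mb (9.49 to 22) and 19.3 on the other autosomes (18.7 to 19.9). These comparisons were chosen after the values were seen. The genes of the long arm were counted from ZNF33B on in the RefSeq gene order, 572 in all.

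**Figure D3:**
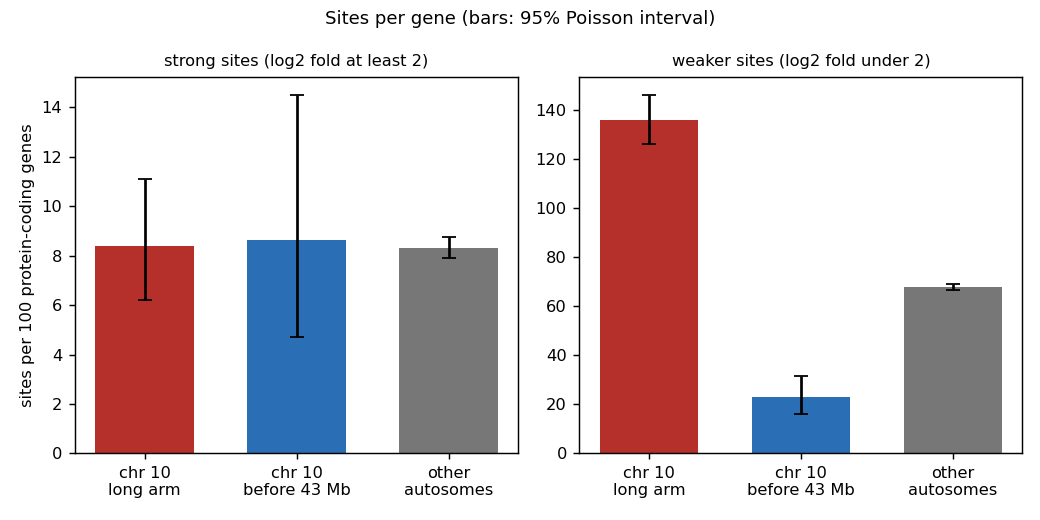
Sites per 100 protein-coding genes with a log2 fold of at least 2 (left) and under 2 (right) on the chromosome 10 long arm, on chromosome 10 before 43 Mb and on the other autosomes. Error bars are exact 95% Poisson intervals. Strong sites number 8.39, 8.64 and 8.32, and weaker sites 136, 22.8 and 67.7.

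At like fold, a site of the long arm carried a smaller FDR. Among sites with a log2 fold from 1.0 to 1.2, the median FDR of the authors' deposited table was 0.000903 on the long arm (179 sites, median input 5.94). It was 0.0108 before 43 Mb (8 sites, 4.80) and 0.00286 on the other autosomes (2963 sites, 5.42). From 0.8 to 0.9 it was 0.00974, 0.0441 and 0.0187. The smallest fold of the long arm was 0.57, at BUB3, a spindle checkpoint gene, and the smallest before 43 Mb was 0.85. Folds from 0 to 0.8 were held by 162 long arm sites (19.6%), 0 of 51 sites before 43 Mb and 1392 sites on the other autosomes (9.96%). Over strong sites, the median input was 5.69 on the long arm, 4.07 before 43 Mb (14 sites) and 5.10 on the other autosomes. The stretch was chosen by its input level, so this order is a description.

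**Figure D4:**
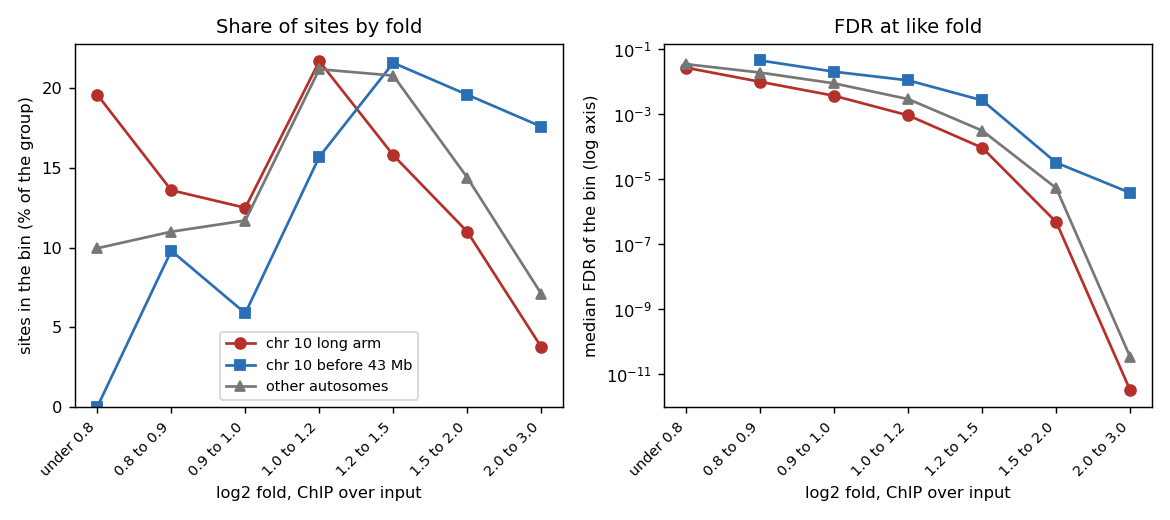
Share of each group's sites by log2 fold (left) and the median of the authors' FDR in the same bins on a log axis (right), for the chromosome 10 long arm, chromosome 10 before 43 Mb and the other autosomes. In the bin from 1.0 to 1.2 the median FDR is 0.000903, 0.0108 and 0.00286.

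The strongest sites of the arm lay at gene starts. In the authors' deposited table, the largest fold was 5.75, at a site from 75571211 to 75571710 over the start of NDST2, a heparan sulfate N-deacetylase and N-sulfotransferase, with a ChIP level of 10.21 over an input of 4.46. That input is low for the arm, and the same site is also paired with CAMK2G, which ends 549 bp away. A site from 103578083 to 103578582, just inside MGEA5, the O-GlcNAcase gene, had a log2 fold of 5.74 and the highest ChIP level of the arm, 12.11 over an input of 6.37. One site from 127511731 to 127512230 covers the divergent starts of BCCIP and of UROS, an enzyme of heme synthesis, and had 5.6, with a ChIP level of 12.02 and an input of 6.41.

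The FRAT pair followed. In the authors' deposited table, FRAT2 had a log2 fold of 5.46 (ChIP level 11.28, input 5.82, FDR 8.74e-112) at a site from 99094376 to 99094875. FRAT1 had 5.26 (11.35, 6.08 and 4.43e-112) from 99078627 to 99079126. By the authors' annotation on hg19, whose starts may differ from those of the printed windows, the sites reach 418 bp before the start of FRAT2 and 395 bp before that of FRAT1. Reads from the stretch the paralogs share may have been placed at either. SMC3, a core subunit of the cohesin ring, had 5.00 from 112327040 to 112327539, with a ChIP level of 11.18, an input of 6.18 and an FDR of 1.79e-105. RTKN2, which encodes rhotekin 2, had 3.72 from 64028293 to 64028792, at a ChIP level of 9.20 over 5.48.

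Other large folds of the arm lay over starts, inside genes or past their ends. DDIT4, a stress-induced inhibitor of mTORC1, had 4.05 in the authors' deposited table at a site 414 bp past its end, with a ChIP level of 10.19 and an input of 6.14. The same site lies 470 bp upstream of RP11-442H21.2 and so counts as a promoter site. GSTO2, a glutathione transferase, had 4.02 at 5895 bp inside the gene. ABLIM1, an actin-binding LIM protein, had 3.85 and MYOF, the membrane repair protein myoferlin, 3.53, both deep inside the gene at 158216 and 45220 bp from the start. DUSP5, a phosphatase of ERK, had 3.06 at 830 bp past its end. The FDR of DDIT4 was 2.2e-08, far above the 7.35e-39 of GSTO2 at nearly the same fold and a lower ChIP level. PPIF, cyclophilin D of mitochondria, singled out after the values were seen, had 3.08 over its end with an FDR of 0.015, where ANK3 had the same fold with 1.38e-26. The spread between libraries that would bear on this is not in the table.

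The 10 sites with the highest input had folds of at most 1.26. The fold is the ChIP level minus the input level, so a choice by high input favours small folds. Of the 10 highest, KCNMA1 had 7.11, near TXNP1 it was 7.03 and at C10orf91 6.83, at sites of 979, 982 and 926 bp where nearly all others are 500 bp wide, and a wider site collects more reads. Sites in or near NPY4R, all inside LINC00842, at 46 to 52 Mb, had 6.93, 6.91 and 6.80, and one near GPRIN2 6.89. NPY4R and GPRIN2 have near-identical copies in the same stretch, so how their reads were divided is uncertain. The 31 sites of that stretch had a median input of 6.15, against 5.94 at the 794 sites of the rest of the arm. The others of the 10 lay near RP11-541N10.3 at 6.93, PPIF at 6.86 and DNAJB12 at 6.78. Their folds in the authors' deposited table ran from 0.63 at NPY4R to 1.26 near PPIF.

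A few sites of the arm had low input. Only 25 of 825 (3.03%, interval 2.06 to 4.44) were under 5, against 46 of 51 before 43 Mb and 20.1% on the other autosomes. The lowest was 2.87, over the start of ATRNL1, an attractin-like gene, with a ChIP level of 6.06 and a log2 fold of 3.19 in the authors' deposited table. Next were 4.24 over the start of RUFY2, 4.29 near ANXA8L1, 4.44 over the start of HSPA12A and the 4.46 of NDST2. Of the 25 low sites, 11 were promoter sites (44.0%, interval 26.7 to 62.9), where the same share was 34.8% before 43 Mb and 37.2% on the other autosomes, both inside that interval.

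The 3 genes with the most sites were long and had none at their starts. KCNMA1, which encodes the pore of the large-conductance calcium-activated potassium channel, had 16 sites, all inside the gene, over a span of 707 kb. Their ChIP levels ran from 6.56 to 8.34 with a median of 7.28, and their inputs from 5.64 to 7.11 with a median of 6.22. The largest fold, 1.85, stood 478256 bp from the start, and the next, 1.75, 245694 bp from it. In the authors' deposited table every one of these 16 sites had an input above 5.4, the median of the other autosomes.

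PTPRE, a receptor-type tyrosine phosphatase, had 11 sites with folds from 0.83 to 1.97 and inputs from 5.45 to 6.51. Of its sites, 6 are also among the 7 listed for MKI67, the proliferation marker gene next to it, none of which lies inside MKI67. ZMIZ1, a transcriptional coactivator, had 11 sites, all inside it, with folds from 0.71 to 1.78 and inputs from 5.87 to 6.57. ADAM12, a metalloprotease, had 8 with folds of 0.61 to 1.04 there, and GRK5, SH3PXD2A and TACC2 had 7 each. DNAJB12, a chaperone gene only 22.1 kb long, was paired with 7 sites, all with an input of at least 5.83. None of the genes named in this paragraph had a site with a log2 fold of 2 or more in the authors' deposited table.

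**Figure D5:**
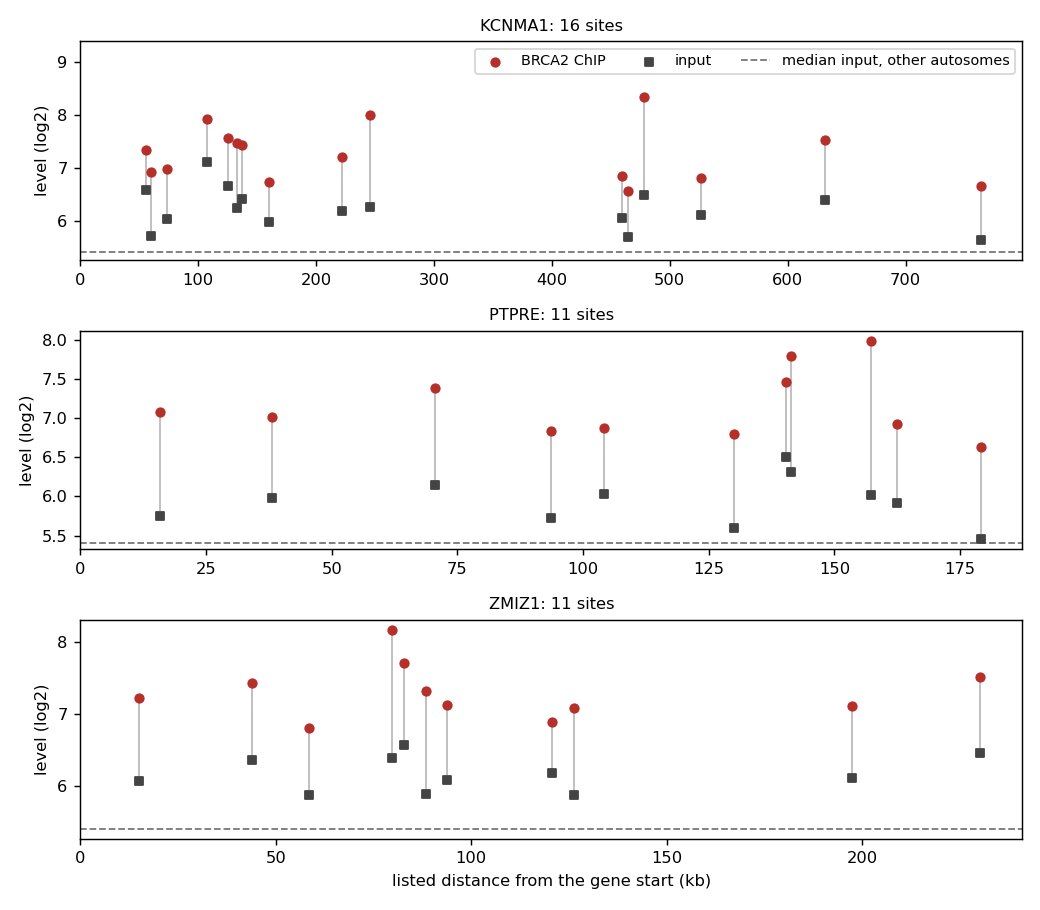
BRCA2 ChIP level (circles) and input level (squares), both log2, of each site of KCNMA1, PTPRE and ZMIZ1 against its listed distance from the gene start in kb. The dashed line is the median input of the other autosomes, 5.4. All 16, 11 and 11 sites have an input above the line, and no site lies within 1 kb of a start.

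Genes of every length held more sites on the long arm than elsewhere. Of its 572 coding genes, 374 (65.4%) were paired with a site, where the share over all 19974 coding genes was 44.5%. Before 43 Mb 25 of 162 (15.4%) were, and on the other autosomes 45.3%. Genes under 20 kb had a mean of 0.86 sites on the long arm, 0.083 before 43 Mb and 0.478 on the other autosomes. Genes from 100 to 300 kb had 2.02, 0.205 and 1.03, and longer genes, such as KCNMA1, 2.88, 0.40 and 1.45. At least 5 sites were held by 27 long arm genes (4.72%), by 0 of 162 before 43 Mb and by 0.957% of genes on the other autosomes. Promoter sites belonged to 200 of the 572 genes (35.0%, interval 31.2 to 39.0), 16 before 43 Mb (9.88%, 6.17 to 15.4) and 24.0% on the other autosomes, against 23.6% over all coding genes.

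The 235 RefSeq promoter windows of long arm genes with a promoter site held the ETS factor motif CCGGAAG in 14.5%, and the 494 windows of other long arm coding genes in 4.25%. On the other autosomes the same shares were 18.9% and 8.16%. GGGCGG was in 60.9% and 47.8% on the long arm, and in 62.5% and 51.2% on the other autosomes. TATAAA was in 5.53% and 10.1%, and in 5.54% and 10.3%. TGACTCA was in 2.13% and 5.06% on the long arm, and in 2.68% and 3.63% on the other autosomes. The NRF1 site was in 1.70% and 0.81%, and in 1.98% and 1.03%. CCAAT was in 31.5% and 30.0%, and in 35.7% and 31.4%. TGACGTCA was in 1.70% and 1.21%, and in 3.09% and 1.72%. Genes can have several windows, and these shares were not tested.

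Lists of genes of this arm, chosen with earlier results of these data known, are given as a description, and their shares were not tested. Of 16 DNA repair and replication genes, 13 had a site (81.2%) and 12 had one at the promoter (75%), beside the 65.4% and 35.0% of all coding genes of the arm. The median of the largest fold per gene was 1.24, and 1.19 over all genes of the arm with a site. BCCIP and SMC3 led. In the authors' deposited table SFR1, a recombination factor that acts with SWI5, had 1.38, DCLRE1A, a crosslink repair nuclease, 1.28 and HELLS, a chromatin remodeler, 1.24. DNA2, a nuclease and helicase of end resection, had 1.04 and ERCC6, of transcription-coupled repair, 0.66. No site was listed for MGMT, WAPAL or FAM175B.

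Among 11 mitosis and cell cycle genes, 7 had a site (63.6%), close to the 65.4% of all coding genes of the arm. A promoter site was held by 6 (54.5%), beside 35.0%. CEP55, needed for abscission, had 2.54 in the authors' deposited table (ChIP level 8.61, input 6.07) and ANAPC16, a subunit of the anaphase-promoting complex, 1.5. The kinesins KIF11 and KIF20B had 0.92 and 0.75, CDK1, the kinase of mitotic entry, 0.72 and BUB3 0.57. The inputs of CDK1, KIF20B and BUB3 were 6.18, 6.56 and 6.63.

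Genes of RNA and ribosome biology had a site at 17 of 18 (94.4%) and a promoter site at 16 (88.9%). The shares of all coding genes of the arm were 65.4% and 35.0%. NOLC1, a nucleolar chaperone of small nucleolar RNPs, had 2.69 in the authors' deposited table, at a ChIP level of 9.39 over 6.70. HNRNPH3, a splicing regulator, had 2.10. POLR3A, the largest subunit of RNA polymerase III, had 1.96 and RPS24, a ribosomal protein, 1.53. These 2 folds were not at a promoter but inside the gene, 3722 and 9499 bp from the start. EIF3A had 1.22, DDX21, a nucleolar helicase, 1.05 and RRP12 0.71. The median of the largest fold was 1.05, below the 1.19 over all genes of the arm with a site.

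Of 22 mitochondrial and metabolic genes, 19 had a site (86.4%) and 15 a promoter site (68.2%), beside 65.4% and 35.0% of all coding genes of the arm. MGEA5 led. NDUFB8, of complex I, and SLC25A28, the mitoferrin that carries iron, each had 1.93, and VDAC2 had 1.89 in the authors' deposited table. MRPL43, a mitochondrial ribosomal protein, and C10orf2, the mitochondrial helicase Twinkle, share 1 site over both starts with 1.15. GOT1, an aspartate aminotransferase, had 0.58 at an input of 6.34.

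Of 23 growth signalling genes, 18 had a site (78.3%) and 8 a promoter site (34.8%), beside the 65.4% and 35.0% of all coding genes of the arm. The largest fold, 5.75, was listed for CAMK2G, at the site over the start of NDST2. Beside DDIT4 and DUSP5, MXI1, a MYC antagonist, had 2.70, TCF7L2, the Wnt effector, 2.26 and SUFU, a Hedgehog inhibitor, 2.21 in the authors' deposited table, none at a promoter. The FDR of TCF7L2 was 0.000319, where the median over long arm sites with folds from 2 to 3 was 3.18e-12. BMPR1A had 1.63 and MAPK8 1.4 near the start. FGFR2, LDB1, PIK3AP1, RAB11FIP2 and FGF8 had none. Of 22 adhesion, matrix and cytoskeleton genes, 19 had a site (86.4%) and 4 a promoter site (18.2%), beside the same 65.4% and 35.0%. ABLIM1, MYOF and ANK3 led, followed by PDLIM1 at 2.60 and COL13A1 at 2.46, and COL17A1, a hemidesmosome collagen of basal epithelium, had 1.57. FAS and ACTA2, which are neighbours, share a site with 0.75.

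Long neural and channel genes had a site at 14 of 19 (73.7%) and a promoter site at 1, ATRNL1 (5.26%). The shares of all coding genes of the arm were 65.4% and 35.0%. In the authors' deposited table, CDH23, a cadherin of hair cells, had 1.43 at an input of 6.47 and NRG3, a neuregulin, 1.21 at 6.09. GRID1, a glutamate receptor gene, had 1.07 at 5.91 and PRKG1, a cyclic GMP kinase, 1.0 at 6.22. CTNNA3 and PCDH15, very long genes of cell adhesion, had none. Of 20 chromatin and transcription genes, 11 had a site (55.0%), beside the 65.4% of all coding genes of the arm. WDR11, listed as BRWD2, had 1.87, JMJD1C 1.60 and SIRT1, a deacetylase, 0.85. The 9 without a site were KAT6B and the developmental factors HHEX, TLX1, PAX2, EMX2, LBX1, VAX1, NKX2-3 and FOXI2. TCF7L2 is in 2 lists. Over all lists, 117 of 150 genes had a site (78.0%), beside 65.4% of all coding genes of the arm and 44.5% of all coding genes. The lists were chosen with earlier results known, so this share was not tested. The inputs of the strongest sites of the 117 genes ran from 2.87 to 6.70 with a median of 5.93.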

How the data were processed

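Per the labels, 2 BRCA2 ChIP libraries and 2 input libraries were sequenced, and the series' design text states that DiffBind compared them. Build hg19 and the tools Bowtie 1.1.1, MACS2, Picard 1.92, cutadapt 1.8.1 and SAMtools are listed in the submitters' processing notes, and the sources used here give neither their settings nor the scaling. Per the file headers, the authors deposited mean log2 concentrations per group, the log2 fold between them and an FDR (a q-value) per site. Depth is unknown. Start positions count from 0 in the table and from 1 here.

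The 23317 rows were reduced to 15131 sites. Each was classed as over a start, over an end, inside, or outside genes. Rows were paired with RefSeq coding genes (GRCh38.p14) by Entrez ID, then symbol, and only names, lengths and gene order were used. Promoter sequences are from RefSeq, with an entry for 504 of 572 long arm genes. Named genes are those of the 10 largest folds, smallest FDRs, highest inputs and highest ChIP levels, those with most sites, the 5 sites on each side of 43 Mb, and 8 gene lists, of which 1 gene is not reported here by name. The members and lists were chosen with earlier results of these data known. Python 3.11.15, pandas 2.3.3 and SciPy 1.17.1 were used. The count of sites, the differences of median input, the promoter class and the interval of a median were tested on simulated data, and the other steps were not. Alternatives tried were stricter FDR and fold limits, other edges and promoter windows, single site classes and means.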

Additional observations from a re-analysis of the deposited data

How the results depend on the processing

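Of the 64 alternatives 1 turned a direction, and 43 stayed within the 95% interval of the long arm's median or share, or for counts and densities within 1.5 times of the value given. No paired analysis was possible because the deposited table gives 1 mean per group, and no replicate could be left out for the same reason. The median input excess over the other autosomes was 0.59 at a log2 fold of at least 2. The ChIP excess was 0.575 in the same sites and 0.363 by means. The fold difference was -0.15 at an FDR under 0.01, -0.22 at an FDR under 0.001, -0.085 at a log2 fold of at least 1 and -0.186 by means. The input difference to chromosome 10 before the edge was 1.525 at an FDR under 0.01, 1.55 at an FDR under 0.001, 1.39 at log2 folds from 1 up and 1.625 at those from 2 up. It was 0.905 with the edge at 50 Mb, which leaves 776 sites past it. That edge counts the sites from 43 to 50 Mb with those before the edge. The promoter share of the long arm was 29.8% at an FDR under 0.01, 33.2% at an FDR under 0.001, 33.3% at a log2 fold of at least 1 and 33.7% with a 3 kb window. On the other autosomes this share also rose, to 41.1% at an FDR under 0.001 and 42.6% with a 3 kb window. The sites numbered 358, or 3.88 per Mb, at an FDR under 0.001 and 448, or 4.86 per Mb, at a log2 fold of at least 1, against 825 and 8.95. The direction that turned was that of strong sites per gene on the long arm over those on chromosome 10 before 43 Mb. This ratio was 0.971 with the line at 2 and 1.64 with the line at 1.5. Stricter limits leave fewer sites, and otherwise the cause was not tested. Alternatives with a fold of at least 2, without 46 to 52 Mb, with sites of 500 bp or on sites per gene were chosen after seeing the data.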

Other observations

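Chromosome 13 had a stretch with levels like those of the chromosome 10 long arm. From 80 Mb on it held 146 sites with a median ChIP level of 6.86, a median input of 5.94 and a median log2 fold of 0.98, against 6.46, 5.33 and 1.12 at the 193 sites before 80 Mb. This edge was chosen after the values were seen, and no test was run. The median gap between neighbouring sites was 38374 bp on the chromosome 10 long arm, 257762 bp before 43 Mb and 56238 bp over all the other autosomes. The closer spacing was not particular to the arm. Some 10 Mb windows elsewhere held more sites than any of the arm, though most held fewer than the fullest of the arm. There were 249 on chromosome 19 from 40 to 50 Mb and 213 on chromosome 11 from 60 to 70 Mb. The most in an arm window was 155, from 73 to 83 Mb.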
